A study of Mus musculus with 16 samples.

Results

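Bleomycin and doxorubicin, both DNA-damaging anticancer drugs, were compared with each other in primary articular chondrocytes of the mouse, the cells that build and maintain the cartilage of joints. The comparison used the 4 bleomycin and the 4 doxorubicin libraries, 8 of the 16 libraries of the series, and every gene with at least 1 FPKM (fragments per kilobase of transcript, scaled to the size of the library) in at least 4 of these 8 libraries. That rule took 12459 of the 55450 genes listed, 11424 of them annotated as protein coding. The remaining 42991 were not tested. Among the genes tested, 13 passed through the bleomycin libraries alone and 30 through the doxorubicin libraries alone. The other 8 libraries, 4 of vehicle and 4 of interleukin-1 beta (IL-1β), give reference levels here.

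All cells were grown in DMEM with 10% fetal bovine serum at 37 °C, 5% CO2 and 3% O2. The bleomycin cells were first exposed to type I-S hyaluronidase, an enzyme that digests hyaluronan, at 4 U/mL for 4 h without serum, 2 days after seeding. They then received 50 µg/mL bleomycin for 24 h with serum, were washed, and were kept in fresh medium without the drug for 5 days. The doxorubicin cells received 50 nM doxorubicin for 5 days, with medium renewed every 48 h. The IL-1β cells had 24 h of the cytokine at 1 ng/mL, and the vehicle cells an equal volume of phosphate-buffered saline over 24 h. The labels give no strain, age, sex or genotype of the mice and do not say whether the replicates came from separate animals or cultures, so p-values measure only the spread between these libraries. The drug, its dose, the length of exposure, the drug-free days and the hyaluronidase step all differ between the groups and cannot be told apart.

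Bleomycin, bound to iron, cuts DNA strands directly and is inactivated in cells by bleomycin hydrolase (Blmh). Doxorubicin slips between DNA bases and traps topoisomerase II on broken DNA. Both are used to drive cultured cells into senescence, a lasting exit from the cell cycle in which p53 and its target p21 (Cdkn1a) or p16 (a product of Cdkn2a) hold the cycle, lamin B1 (Lmnb1) is lost and the cells secrete cytokines, chemokines and proteases. In cartilage such secretion is of interest because matrix metalloproteinases and aggrecanases break down collagen and aggrecan, and senescent chondrocytes are found in osteoarthritic joints.

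The 8 libraries were alike in depth and content. Estimated depth was 15.8 to 22.1 M fragments per bleomycin library and 17.1 to 21.7 M per doxorubicin library (M, mega), with 12333 to 12481 genes at 1 FPKM or more. Pearson correlations of log2(FPKM + 1) across the genes tested were 0.985 to 0.99 within a drug group and 0.977 to 0.984 between the drugs, so the 2 drug groups were only slightly less alike than replicates. The first principal component, 35.6% of the variance, separated the drugs. On the second, 13.4%, bleomycin replicate 4 stood apart at -20.16, where the other three bleomycin libraries were between 3.97 and 6.91. The chondrocyte label held in both groups: all 11 chondrocyte markers passed the filter, and their summed level was 9262 to 12485 FPKM under bleomycin and 9400 to 12464 FPKM under doxorubicin. Endothelial and macrophage markers were low, with 10 of 11 endothelial markers (Pecam1 and Cdh5 among them) and 11 of 16 macrophage markers (Ptprc, Adgre1, Csf1r and Itgam among them) below 1 FPKM in all 8 libraries. Adipocyte, synovial, tendon and osteoblast markers were present, at summed levels of 83.1 to 91.3, 180.3 to 232, 749 to 793 and 991 to 1076 FPKM under bleomycin.

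Most genes stood at nearly the same level under both drugs. A gene was called at a Benjamini-Hochberg adjusted p under 0.05 from limma over all 12459 genes. By that rule 1141 genes (9.16%) were called, 654 higher in bleomycin (5.25% of those tested) and 487 higher in doxorubicin (3.91%). These shares are the background for the counts of every list below. The called genes include 10 of the 13 that passed the filter only through bleomycin and 21 of the 30 that passed only through doxorubicin. For these the filter itself favoured a difference, so their calls are not separate support. In 1123 of the 1141 the 8 values did not overlap between the groups. A call from 4 libraries per group makes this likely, and the rule for naming the largest differences required it. Non-overlap is therefore not separate support, here or below. For 10654 genes (85.5%) the 95% confidence interval of the difference in log2(FPKM + 1) lay within 1.5-fold in either direction. Of the called genes 546 were among them. That scale understates differences of low genes, and with a pseudocount of 0.1 FPKM the number of such alike genes was 9370. On the log2(FPKM + 1) scale 48 genes (0.385%) were at least 2-fold higher in doxorubicin and 3 (0.0241%) at least 2-fold higher in bleomycin, which became 84 and 21 with a pseudocount of 0.1 FPKM. Those 3 were Msmp, Smpd3 and the gene model Gm27021, at 2.89 ± 0.555 and 0.94 ± 0.782 FPKM, which lost its call without any 1 bleomycin library or doxorubicin replicate 3 (adjusted p = 0.0703 to 0.107). Without bleomycin replicate 4 the counts were 554 and 479, with 2 and 51 genes at least 2-fold apart. The 654 fell to 333, 339 and 366 without bleomycin replicates 1, 2 and 3 and to 389 without doxorubicin replicate 2. The called genes were 57.3% higher in bleomycin as the values were deposited, 39.1% after median-of-ratios scaling and 45.2% after quantile normalization.

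**Figure D1:**
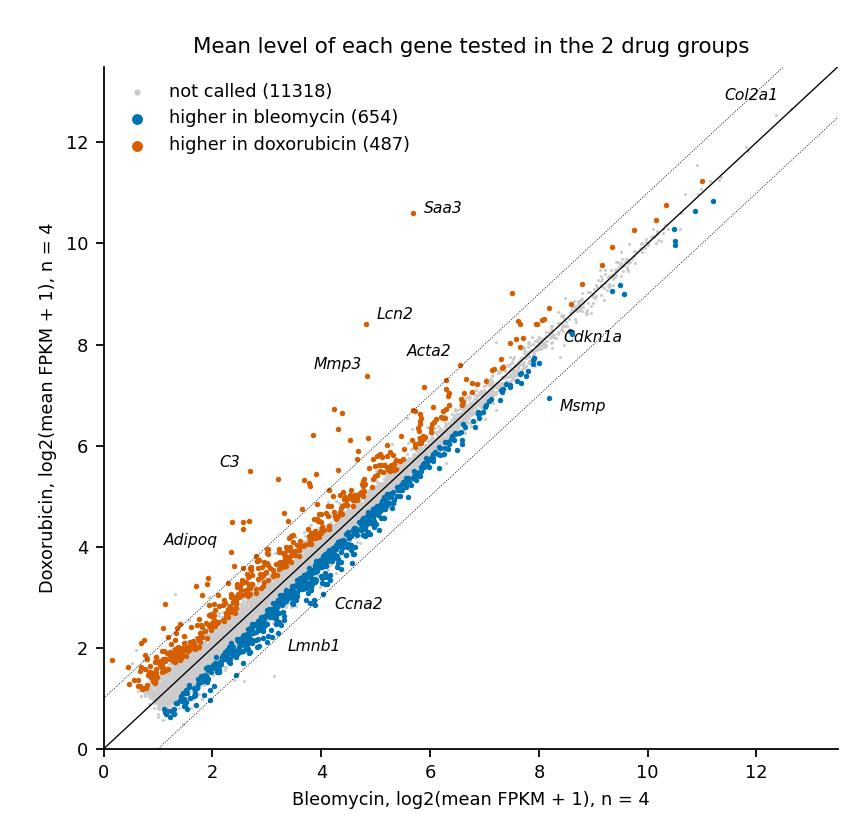
Mean level of each of the 12459 genes tested under bleomycin (horizontal axis) and doxorubicin (vertical axis), as log2(mean FPKM + 1) of 4 libraries each. Blue points are the 654 genes higher in bleomycin, orange points the 487 higher in doxorubicin, grey points the genes not called, the solid line is equality and the dotted lines mark a 2-fold difference. The points far from the line, Saa3 (50.6 against 1543 FPKM) and Lcn2 (27.2 against 339.9 FPKM) among them, lie on the doxorubicin side.

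The 3 largest differences, on the log2(FPKM + 1) scale and with doxorubicin the higher, were those of Saa3, Lcn2 and C3. Saa3, which encodes a serum amyloid A protein made by stimulated connective tissue cells, was at 41.2, 35.7, 54.1 and 71.4 FPKM in the bleomycin libraries and at 1313, 790.3, 1415 and 2654 FPKM in the doxorubicin libraries. Every doxorubicin library was above every bleomycin library, and the means of 50.6 ± 15.8 and 1543 ± 789.6 FPKM (SD, n = 4 each) differed 30.5-fold, a log2 difference of -4.82 (SE 0.34, bleomycin minus doxorubicin, adjusted p = 2.16e-04). Lcn2, the siderophore-binding lipocalin-2, was at 26.2, 24.5, 25.3 and 33 FPKM under bleomycin and 279, 226, 275 and 580.2 FPKM under doxorubicin. Its means differed 12.5-fold (log2 difference -3.50, SE 0.25, adjusted p = 2.16e-04). C3, the central complement component, was at 5.13, 5.13, 5.07 and 6.57 FPKM against 39.8, 37.2, 40.7 and 58.5 FPKM, an 8.05-fold difference of means (log2 difference -2.78, SE 0.14, adjusted p = 5.48e-05). In each of these 3 genes the groups were apart and doxorubicin replicate 4 was the highest library. That library was the highest of its group in 37 of the 48 genes at least 2-fold higher in doxorubicin (77.1%), against 31.8% of all genes tested, and without it 41 genes were at least 2-fold higher.

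The reference libraries place these genes differently. For Saa3 and Lcn2 the vehicle means, 156 and 78.4 FPKM, lay between the 2 drugs, so bleomycin cells were below the vehicle and doxorubicin cells above it. For C3 the vehicle mean of 6.6 FPKM was close to bleomycin. IL-1β gave 70952 FPKM of Saa3, 4542 FPKM of Lcn2 and 116 FPKM of C3, far above both drugs. Of the 48 genes at least 2-fold higher in doxorubicin, the vehicle mean was below both drugs in 17 (35.4%, against 47.7% of all genes tested). It was between them in 26 (54.2%, against 15.5%) and above both in 5 (10.4%, against 36.8%). A wide gap between the drugs leaves more room for a mean between them. The IL-1β mean was above both in 26 (54.2%, against 42.8%). The vehicle libraries were harvested after a 24 h treatment, not on the drugs' schedule, so these positions are levels and not a drug effect.

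As a set, 10 of the 11 acute-phase genes that passed the filter were higher in doxorubicin (90.9%, against 3.91% of all genes tested) and none was higher in bleomycin, with a median log2 difference of -1.48 where all genes tested had 0.05. The other 11 listed genes did not pass. Members that passed only because of their doxorubicin level had to differ, and Saa1 is 1 of those, at 0.162, 0.0211, 0.135 and 0.13 FPKM under bleomycin and 1.63, 1.79, 1.48 and 4.64 FPKM under doxorubicin. Serpina3i, an inhibitor of serine proteases, was 5.16-fold higher (4.12 ± 1.13 against 21.3 ± 5.28 FPKM, adjusted p = 4.13e-04) and its neighbour Serpina3h, annotated as a transcribed pseudogene, 5.47-fold higher (13.4 ± 1.99 against 73.1 ± 20.4 FPKM). Reads of related neighbours can be split between them in counting where their sequences are alike, so the values of single Serpina3 and Saa genes are uncertain. Steap4, a metalloreductase, was 4.04-fold higher (5.4 ± 0.92 against 21.9 ± 5.25 FPKM) and Hp, haptoglobin, which binds free haemoglobin, 3-fold higher (14 ± 1.85 against 42.1 ± 12.8 FPKM). Hpx, hemopexin, at 0.873 and 1.02 FPKM, was the member not called.

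Several of these genes carry a match to the core motif of C/EBP factors, which drive acute-phase genes, close to their start sites. It was 1 of 8 motifs searched. The letters were TTGCNNAA on both strands in the 250 bases before and 50 after each annotated RefSeq start (build GRCm38.p6). Of 32851 such promoters 10.8% held a match, as did 9.77% of the 9382 genes tested that have an entry, 9.39% of the 511 genes higher in bleomycin, 15.8% of the 355 higher in doxorubicin and 40.6% of the 32 at least 2-fold higher in doxorubicin. Of the 48 genes at least 2-fold higher in doxorubicin only these 32 have an entry, so the share does not cover the whole set. The 13 genes behind the last share were C1s1, C3, Dmkn, Il1rl1, Il6, Kcnj15, Lcn2, Mmp3, Saa1, Saa3, Sfrp2, Slpi and Steap4. Among them Saa1 and Il6 passed the filter only through the doxorubicin libraries. The stretches around the match are shown for the 5 of these with the largest differences, 5′ to 3′ on the strand of the gene, with the match in capitals. They are at chr7:46715728-46715815 (minus strand), chr2:32387908-32387989 (minus), chr17:57228137-57228221 (minus), chr9:7445634-7445721 (plus) and chr5:7960345-7960432 (plus), and the first base of the match lay at -99, -216, -45, -148 and -87 from the start site.
Saa3: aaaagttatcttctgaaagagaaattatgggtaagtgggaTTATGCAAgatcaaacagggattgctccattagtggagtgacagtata
Lcn2: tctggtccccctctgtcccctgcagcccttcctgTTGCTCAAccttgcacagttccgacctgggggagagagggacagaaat
C3: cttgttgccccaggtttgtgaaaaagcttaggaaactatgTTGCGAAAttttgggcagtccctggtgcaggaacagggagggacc
Mmp3: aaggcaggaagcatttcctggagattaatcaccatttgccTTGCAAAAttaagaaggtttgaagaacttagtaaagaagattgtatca
Steap4: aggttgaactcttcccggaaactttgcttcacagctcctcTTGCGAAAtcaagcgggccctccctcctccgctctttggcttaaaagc
A match is a run of letters and not a measured binding site.

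Several chemokines that draw neutrophils and monocytes were higher in doxorubicin cells. Of the 16 chemokine genes that passed the filter, 8 were higher in doxorubicin (50%) and 1 in bleomycin, with a median log2 difference of -0.51. Cxcl1, a neutrophil attractant, was at 8.4, 9.89, 6.18 and 8.44 FPKM under bleomycin and 33, 30.8, 32.5 and 61.7 FPKM under doxorubicin, a 4.8-fold difference of means (log2 difference -2.09, SE 0.21, adjusted p = 7.64e-04). The vehicle mean of 38.5 FPKM equalled the doxorubicin level within the spread of its libraries, so the low group was bleomycin. Cxcl5, Cxcl3 and Ppbp, which lie beside Cxcl1 on chromosome 5 and encode ligands of the same receptor Cxcr2, were 5.87-fold, 4.35-fold and 5.33-fold higher. Their means were 17.7 against 104 FPKM, 4.93 against 21.4 FPKM and 1.18 against 6.27 FPKM. On chromosome 11 the neighbours Ccl2 and Ccl7, which attract monocytes through Ccr2, were 4.26-fold and 3.08-fold higher (18.7 ± 3.06 against 79.7 ± 22.7 FPKM, and 22.2 ± 2.42 against 68.5 ± 19.4 FPKM). All 6 had groups that did not overlap. The member with the opposite direction was Cx3cl1, the membrane-bound chemokine fractalkine, at 15.8 ± 1.59 FPKM under bleomycin and 11.7 ± 1.31 FPKM under doxorubicin (adjusted p = 0.0285), a call lost without bleomycin replicate 1 or 4 or doxorubicin replicate 1 or 2 (adjusted p = 0.0553 to 0.0764). Cxcl12, at 32 ± 3.61 and 47.7 ± 13.1 FPKM, did not pass (adjusted p = 0.0841), nor did Ccl5 at 4.13 ± 0.988 and 5.94 ± 1.16 FPKM (adjusted p = 0.0982, or 0.0381 without bleomycin replicate 2).

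Cxcl1 and Cxcl3 share a match to the kappaB motif (GGANNTTCC, both strands) that NF-kB binds, with its first base at -70 and -72 from their start sites. The letters occur in 4.26% of all promoters, 5.51% of genes tested, 5.28% of those higher in bleomycin and 8.17% of those higher in doxorubicin. They also occur in 6 of the 32 at least 2-fold higher in doxorubicin (18.8%). Besides Cxcl1 and Cxcl3 these are C1s1, F3, Il1rl1 and Il6, of which Il6 passed the filter only through the doxorubicin libraries. The AP-1 letters TGANTCA were in 7.81% of all promoters, 6.17% of genes tested, 5.68% of those higher in bleomycin, 13.8% of those higher in doxorubicin and 15.6% of the 32. The windows of Cxcl1 and Cxcl3 are shown because the 2 genes carry the same 9 bases at nearly the same distance. They are at chr5:90891135-90891223 and chr5:90785989-90786077, both on the plus strand, with the match in capitals.
Cxcl1: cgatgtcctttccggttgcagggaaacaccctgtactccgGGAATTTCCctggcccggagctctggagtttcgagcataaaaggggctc
Cxcl3: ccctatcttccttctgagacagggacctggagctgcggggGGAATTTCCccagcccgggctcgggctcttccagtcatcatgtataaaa

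**Figure D2:**
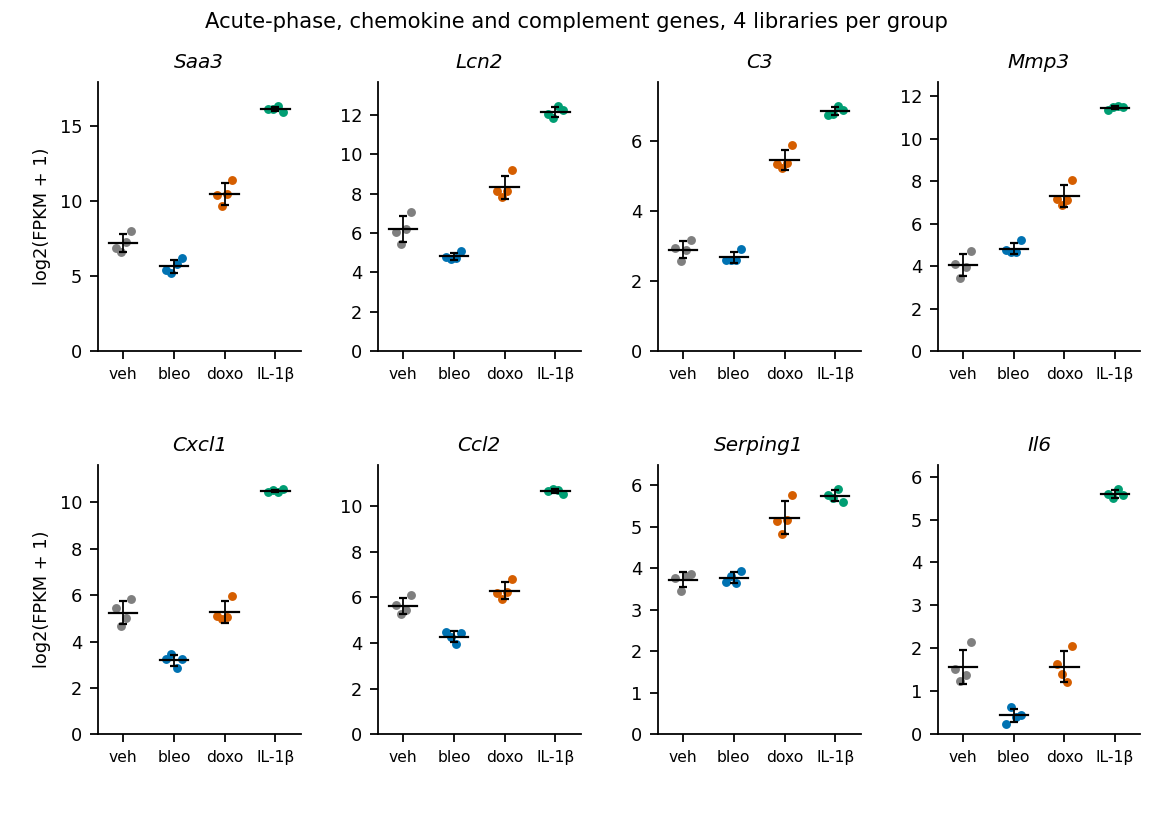
Levels of 8 genes in every library as log2(FPKM + 1), with vehicle, bleomycin, doxorubicin and IL-1β on the horizontal axis. Points are libraries, and bars are the mean and SD of 4 on that scale. In each panel all 4 doxorubicin points lie above all 4 bleomycin points, and for Cxcl1 and Il6 the vehicle points lie at the doxorubicin level.

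Cytokines and NF-kB genes followed in part. Il6, the interleukin-6 gene, was at 0.189, 0.558, 0.33 and 0.377 FPKM under bleomycin and 2.11, 1.64, 1.31 and 3.17 FPKM under doxorubicin, so it passed the filter only through the doxorubicin libraries. The vehicle mean was 2.08 FPKM and the IL-1β mean 47.3 FPKM. Il1rl1, the receptor of interleukin-33, was 2.17-fold higher in doxorubicin (24.1 ± 4.17 against 52.2 ± 4.62 FPKM, adjusted p = 0.00108). Il34, a ligand of the Csf1 receptor, was 1.5-fold higher (6.91 ± 0.476 against 10.3 ± 1.08 FPKM), and Tnfsf11, which encodes RANKL, the signal for osteoclast formation, was 1.82-fold higher (1.32 ± 0.158 against 2.41 ± 0.675 FPKM, adjusted p = 0.038). The call of Tnfsf11 held only without doxorubicin replicate 3 when libraries were left out in turn (adjusted p = 0.0522 to 0.0994 without any other). In all 7 of 22 cytokine and receptor genes were higher in doxorubicin (31.8%, against 3.91% of all genes tested) and 0 in bleomycin, at a median of -0.14. The count was 4 without bleomycin replicate 1, 2 or 3 or doxorubicin replicate 4. Tnfrsf11b, the decoy receptor of RANKL, was at 425 ± 43.3 and 453 ± 38.6 FPKM and was not called.

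Of 32 NF-kB subunits, inhibitors and targets, 15 were higher in doxorubicin (46.9%) and 0 in bleomycin, at a median of -0.31. The doxorubicin count was 9 with a term for the replicate number and 10 without doxorubicin replicate 1. It was 11 without any 1 bleomycin library or doxorubicin replicate 4. The called members were targets and inducible regulators such as C3, Lcn2, Cxcl1 and Ccl2. The subunit genes Rela (24.8 ± 2.61 and 28.3 ± 2.54 FPKM) and Nfkb1 (20.6 ± 1.61 and 22.3 ± 2.64 FPKM) and the inhibitor Nfkbia (14.1 ± 1.96 and 17.6 ± 2.51 FPKM) were not called, with adjusted p of 0.238, 0.51 and 0.135. The lists of chemokines, acute-phase and NF-kB genes share members, so their counts are not separate evidence.

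Several complement genes of the classical and alternative pathways were higher in doxorubicin. Of 18 that passed the filter 8 were higher in doxorubicin (44.4%) and 0 in bleomycin, with a median of -0.30. C1s1, the protease of the first component, was at 23.7, 22.6, 25.6 and 25.6 FPKM under bleomycin and 57.8, 52.9, 53.7 and 69.3 FPKM under doxorubicin, 2.4-fold apart with no overlap (adjusted p = 2.16e-04). Its inhibitor Serping1 was 2.95-fold higher (12.7 ± 1.26 against 37.4 ± 11.3 FPKM) and Cfb, factor B of the alternative pathway, 3.32-fold higher (11.8 ± 2.19 against 39 ± 14.2 FPKM). The activating protease and its inhibitor therefore differed in the same direction. Masp1, a protease of the lectin pathway, was at 60.3 ± 3.28 and 59.9 ± 5.94 FPKM, with a 95% interval of the log2 difference from -0.16 to 0.19.

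Interferon-stimulated genes leaned to doxorubicin, but few passed. Of 45 tested, 44 had a difference below 0 and the median was -0.36, where all genes tested had 0.05. Only 5 were called, all higher in doxorubicin (11.1%, against 3.91% of all genes tested). The count was 17 without bleomycin replicate 4 and 2 without bleomycin replicate 2 or 3, so it moved with single libraries. Gbp2, a guanylate-binding protein, was 2-fold higher in doxorubicin (6.07 ± 0.777 against 12.1 ± 2.09 FPKM, adjusted p = 0.0028), and Zbp1, a sensor of unusual nucleic acids, 2.15-fold higher (2.03 ± 0.567 against 4.35 ± 1.23 FPKM, adjusted p = 0.0228, or 0.0556 to 0.0584 without bleomycin replicate 1, 2 or 3). Isg15, a ubiquitin-like protein, was at 62.3, 55.5, 85 and 98.9 FPKM under bleomycin and 88.4, 96.3, 103 and 99.2 FPKM under doxorubicin. These groups overlapped and Isg15 was not called (adjusted p = 0.165, or 0.0447 without bleomycin replicate 4), although both stood far above the vehicle mean of 2.12 FPKM. Of 21 class I MHC and antigen-processing genes 0 were called by limma, and 3 had an unadjusted p under 0.05. Without bleomycin replicate 4, 1 was called, higher in doxorubicin. H2-K1 was at 84.4 ± 20.4 and 84.1 ± 14.4 FPKM, and B2m, the light chain, at 554 ± 94.6 and 707 ± 106 FPKM (adjusted p = 0.143).

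Mmp3, stromelysin-1, which cleaves proteoglycans and activates other metalloproteinases, was at 26.3, 24.3, 24.3 and 36.5 FPKM under bleomycin and 144, 116, 139 and 267 FPKM under doxorubicin, 5.97-fold apart (log2 difference -2.48, SE 0.24, adjusted p = 5.44e-04). Mmp13, the collagenase that cuts type II collagen, was at 198, 193, 164 and 231 FPKM against 314, 286, 290.5 and 512 FPKM, 1.79-fold apart (adjusted p = 0.0259, or 0.062 to 0.071 without bleomycin replicate 1, 2 or 3). In both genes the groups did not overlap and doxorubicin replicate 4 was the highest. Adamts5, an aggrecanase, was 1.52-fold higher in doxorubicin (14.4 ± 1.32 against 21.8 ± 2.27 FPKM, adjusted p = 0.00483), whereas the other main aggrecanase gene, Adamts4, was at 2.57 ± 0.42 and 2.21 ± 0.223 FPKM with overlapping groups (adjusted p = 0.407). Mmp19 was 1.53-fold and Adamts2, which trims procollagen, 1.38-fold higher in doxorubicin. Of 23 proteases tested 7 were higher in doxorubicin (30.4%) and 2, Mmp23 and Adamts9, in bleomycin, at a median of -0.08. Mmp23 was not called without bleomycin replicate 1, 2 or 4 or doxorubicin replicate 2 (adjusted p = 0.057 to 0.0754). Mmp14, the membrane collagenase, was at 152 ± 2.57 and 150 ± 14.1 FPKM.

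Of 15 protease inhibitors tested 6 were higher in doxorubicin (40%) and 0 in bleomycin, at a median of -0.05. Slpi, the secretory leukocyte protease inhibitor, was at 195, 189, 173 and 168 FPKM under bleomycin and 508, 485, 463 and 609.8 FPKM under doxorubicin, 2.85-fold apart (log2 difference -1.50, SE 0.09, adjusted p = 1.44e-04). The metalloproteinase inhibitors were at nearly equal levels: Timp1 at 1000 ± 26.8 and 1040 ± 116 FPKM and Timp3 at 1331 ± 28.1 and 1250 ± 81.1 FPKM, neither called.

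In the other direction, most genes of cell division were higher in bleomycin. Of 49 mitosis and G2/M genes tested, all 49 had a difference above 0 and 38 were called higher in bleomycin (77.6%, against 5.25% of all genes tested). In doxorubicin 0 were higher, and the median log2 difference was 0.56, where all genes tested had 0.05. Ccna2, cyclin A2, was at 15, 15.8, 14.9 and 16 FPKM under bleomycin and 8.36, 6.78, 7.13 and 7.39 FPKM under doxorubicin, 2.08-fold apart (log2 difference 0.97, SE 0.07, adjusted p = 2.16e-04). Bub1b, a spindle checkpoint kinase, was at 8.09, 7.6, 6.64 and 7.74 FPKM against 3.8, 3.6, 3.31 and 3.84 FPKM, 2.07-fold apart. Birc5, survivin, of the chromosomal passenger complex, was 1.95-fold higher (22.8 ± 2.72 against 11.7 ± 1.7 FPKM). The groups did not overlap in any of the 3, and the vehicle means of 32.4, 16.2 and 49.4 FPKM were above both drugs. In a mixed culture fewer dividing cells and less of these RNAs per cell cannot be told apart.

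Ccnb2, cyclin B2, was 1.84-fold higher in bleomycin (16.9 ± 1.59 against 9.15 ± 0.992 FPKM) and Racgap1, which organizes the cleavage furrow, 1.83-fold higher (15.7 ± 1.16 against 8.61 ± 0.414 FPKM). Top2a, the topoisomerase II form of dividing cells and a target of doxorubicin, was at 26.6, 29.1, 25.7 and 27.5 FPKM under bleomycin and 20.2, 18, 15.2 and 18.1 FPKM under doxorubicin (1.52-fold, adjusted p = 0.00375), with a vehicle mean of 52.5 FPKM. Mki67, a nuclear antigen of proliferating cells, did not follow: it was at 0.926, 2.57, 1.26 and 4.09 FPKM under bleomycin and 1.75, 1.37, 1.13 and 1.61 FPKM under doxorubicin. The bleomycin libraries spread widely and the groups overlapped (adjusted p = 0.565). Ube2c (27.1 ± 3.54 and 21 ± 3.32 FPKM) and Bub3 (27.8 ± 0.792 and 27.7 ± 1.28 FPKM) were also not called.

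Genes of DNA replication showed the same direction with smaller differences. Of 45 tested 26 were higher in bleomycin (57.8%) and 0 in doxorubicin, at a median of 0.36. The bleomycin count was 18 without bleomycin replicate 2 and also with no filter on low values. Tk1, thymidine kinase, was 1.83-fold higher in bleomycin (19.6 ± 2.38 against 10.7 ± 1.87 FPKM, adjusted p = 0.00505) and Ccne2, cyclin E2, 1.87-fold higher (6.63 ± 1.01 against 3.55 ± 0.739 FPKM). The helicase subunits Mcm2 and Mcm6 were 1.68-fold and 1.67-fold higher, at 12.5 ± 0.931 against 7.44 ± 0.992 FPKM and 16 ± 0.629 against 9.58 ± 1 FPKM. Rrm2, a subunit of ribonucleotide reductase, stood out at 57.8 ± 4.88 and 58.9 ± 3.99 FPKM, with a 95% interval of the log2 difference from -0.19 to 0.14. Asf1b, a histone chaperone, was 1.94-fold higher in bleomycin (7.12 ± 0.534 against 3.68 ± 0.374 FPKM). Replication-dependent histone genes were not: 0 of the 12 that passed the filter were called by limma and 0 had an unadjusted p under 0.05, at a median of 0.00, and the other 36 did not pass.

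Some of the cell-division genes hold the cell-cycle homology region (CHR) letters TTTGAA, through which repressor and activator complexes time late cell-cycle genes. On both strands these letters were in 17.9% of all promoters, 14% of genes tested, 22.3% of those higher in bleomycin and 16.1% of those higher in doxorubicin. The E2F letters TTCCCGC were in 10%, 13.7% and 7.32% of the same 3 sets of genes tested, higher in bleomycin and higher in doxorubicin. The stretch upstream of the start site is shown for 3 genes higher in bleomycin with a match before the start, with that match in capitals. They are Hmgb2 at chr8:57511773-57511842 (plus strand), Ccnb2 at chr9:70421676-70421761 (minus) and Asf1b at chr8:83955640-83955693 (plus). The first base of the match shown lay at -30, -167 and -14 from the start. Hmgb2 and Ccnb2 each hold a further match, at -218 and 4.
Hmgb2: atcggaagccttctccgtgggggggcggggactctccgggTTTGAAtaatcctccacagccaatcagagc
Ccnb2: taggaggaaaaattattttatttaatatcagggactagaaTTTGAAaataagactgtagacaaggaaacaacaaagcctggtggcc
Asf1b: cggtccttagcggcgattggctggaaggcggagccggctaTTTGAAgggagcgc

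Nuclear lamina and chromatin genes also differed. Lmnb1, lamin B1, whose loss marks senescent cells, was at 8.75, 8.43, 8.21 and 7.65 FPKM under bleomycin and 3.64, 4.22, 4.43 and 3.36 FPKM under doxorubicin, 2.11-fold apart with no overlap (log2 difference 0.92, SE 0.09, adjusted p = 4.96e-04). The vehicle mean was 22.7 FPKM, so both drug groups were below it and doxorubicin was the lower. Hmgb2, a chromatin protein, was 1.88-fold higher in bleomycin (16.2 ± 1.18 against 8.62 ± 0.951 FPKM), and Lmnb2 and the lamin B receptor Lbr were both 1.53-fold higher. Of 21 genes of the list 9 were higher in bleomycin (42.9%) and 0 in doxorubicin, at a median of 0.25. Lmna, lamin A, was at 206 ± 10 and 181 ± 35.5 FPKM and was not called. Of 41 DNA repair genes 5 were higher in bleomycin (12.2%), the histone variant H2ax (18.5 ± 2.81 against 11.1 ± 2 FPKM) and Parp1 (19.5 ± 0.289 against 13.8 ± 0.664 FPKM) among them. The count was 2 without bleomycin replicate 2.

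The inhibitors of cyclin-dependent kinases did not move as a group. Cdkn1a, p21, was at 302, 301, 316 and 288 FPKM under bleomycin and 337, 328, 342 and 302 FPKM under doxorubicin. The difference of -0.12 (95% interval -0.24 to 0.01) was not called, and both drugs stood well above the vehicle mean of 122 FPKM. Cdkn2a, which encodes p16 and p19Arf, was at 12.1, 14.2, 12.5 and 12.8 FPKM under bleomycin and 6.53, 4.91, 6.68 and 7.3 FPKM under doxorubicin, 2.02-fold apart (log2 difference 0.92, SE 0.11, adjusted p = 0.00124). The vehicle mean was 6.13 FPKM, so Cdkn2a stood above the vehicle in bleomycin cells and at its level in doxorubicin cells. One value per gene cannot separate the 2 transcripts. Cdkn2b, p15, beside it on chromosome 4, was at 34.7 ± 1.89 and 31 ± 3.74 FPKM and was not called. Cdkn2c, p18, was 1.64-fold higher in bleomycin (19.5 ± 0.949 against 11.9 ± 1.13 FPKM, adjusted p = 9.47e-04). Of 15 genes of the list 3 were higher in bleomycin (20%, against 5.25% of all genes tested) and 0 in doxorubicin.

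**Figure D3:**
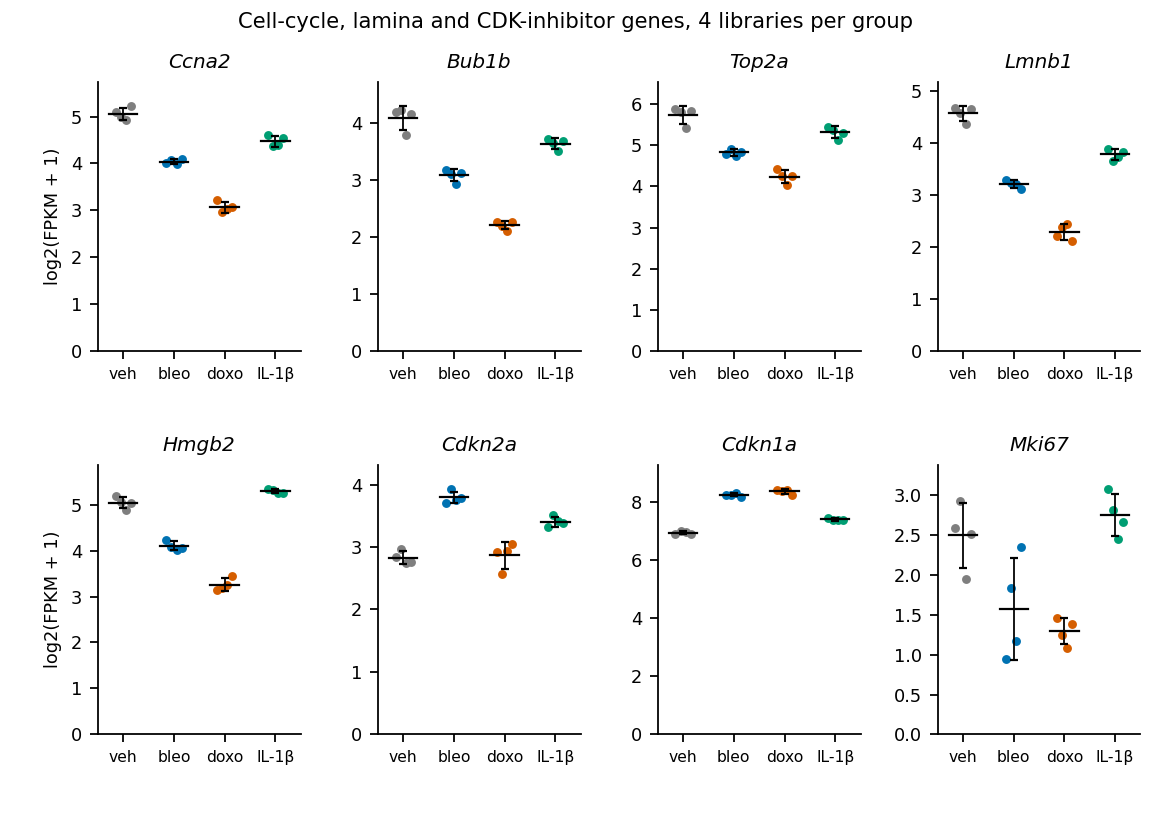
Levels of 8 genes in every library as log2(FPKM + 1), with the 4 groups on the horizontal axis. Points are libraries, and bars are the mean and SD of 4 on that scale. The bleomycin points lie above the doxorubicin points for Ccna2, Bub1b, Top2a, Lmnb1, Hmgb2 and Cdkn2a, and the 2 groups overlap for Cdkn1a and Mki67.

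Targets of p53 tended the other way. Of 40 tested 10 were higher in doxorubicin (25%) and 0 in bleomycin, at a median of -0.10. The doxorubicin count was 6 without bleomycin replicate 1 or doxorubicin replicate 1. The bleomycin count was 1 in the fit on all 16 libraries, without the mean-variance trend or without doxorubicin replicate 3. Steap3, a p53 target described below that is not on the list, was higher in bleomycin. Fas, a death receptor, was 1.42-fold higher in doxorubicin (22.1 ± 1.25 against 31.4 ± 1.79 FPKM, adjusted p = 0.00212) and Ei24 1.36-fold higher (32.6 ± 0.799 against 44.2 ± 0.727 FPKM). Mdm2, the ligase that degrades p53, was at 64.7 ± 4.22 and 73.8 ± 3.84 FPKM and Bax, a pore-forming death protein, at 166 ± 9.4 and 177 ± 19.5 FPKM, neither called. Trp53 itself was at 38.1 ± 0.782 and 42.1 ± 2.5 FPKM (adjusted p = 0.152).

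Several contractile genes of the myofibroblast type were higher in doxorubicin. Actg2, smooth-muscle gamma-actin, was at 5.62, 5.84, 4.36 and 3.84 FPKM under bleomycin and 24, 19.9, 14.8 and 18.6 FPKM under doxorubicin, 3.93-fold apart (log2 difference -1.78, SE 0.15, adjusted p = 3.80e-04). Acta2, smooth-muscle alpha-actin, was at 107, 92, 86.7 and 88.1 FPKM against 203, 192, 164 and 214 FPKM, 2.07-fold apart. Myl9, a myosin light chain, Tagln, transgelin, and Cnn1, calponin, were 2.48-fold, 2.04-fold and 1.92-fold higher. The groups of these 5 genes did not overlap, and for Acta2, Tagln and Cnn1 the vehicle means of 233, 149.8 and 9.65 FPKM were near or above the doxorubicin level, so the low group was again bleomycin. In the list of fibroblast-type matrix and contractile genes 13 of 34 were higher in doxorubicin (38.2%) and 1, Col6a3, in bleomycin, at a median of -0.23. The abundant members Fn1 (5239 ± 209 and 5950 ± 728 FPKM), Vim (1108 ± 99 and 1116 ± 95.9 FPKM) and Col1a2 (1144 ± 43.1 and 1025 ± 40.8 FPKM) were not called.

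Cartilage matrix genes were mostly at the same level. Col2a1, type II collagen, was at 5599, 6460, 7294 and 6071 FPKM under bleomycin and 6208, 6779, 7388 and 5605 FPKM under doxorubicin, a difference of -0.03 (95% interval -0.27 to 0.21). Acan, aggrecan, was at 303 ± 29.5 and 312 ± 41.1 FPKM, with about the same interval (-0.27 to 0.19), and Sox9, the chondrocyte master regulator, at 44.3 ± 2.09 and 46.8 ± 3 FPKM. Prg4, lubricin, the lubricant of the joint surface, was an exception: it was at 52.1, 56.9, 52.5 and 60.6 FPKM under bleomycin and 106, 93, 87.4 and 103 FPKM under doxorubicin, 1.75-fold apart with no overlap (adjusted p = 5.44e-04). The vehicle mean of Prg4 was 21.1 FPKM, below both. Comp, cartilage oligomeric matrix protein, was 1.36-fold higher in bleomycin (1450 ± 214 against 1065 ± 128 FPKM, adjusted p = 0.0461), but its groups overlapped, and it kept the call only without bleomycin replicate 1 or doxorubicin replicate 3 (adjusted p = 0.0686 to 0.108 without any other library). Of 30 genes of the list 2 were higher in bleomycin (6.67%, against 5.25% of all genes tested) and 3 in doxorubicin (10%, against 3.91%). Of 18 hypertrophy and mineralization genes 1, Mmp13, was higher in doxorubicin (5.56%) and 3 were higher in bleomycin (16.7%): Mgp, an inhibitor of calcification, Ank, a pyrophosphate transporter, and Col10a1, type X collagen. Without bleomycin replicate 2 or 3 the count was 0 (adjusted p = 0.0511 to 0.096 for the 3 genes), and without bleomycin replicate 1 it was 1.

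Markers of adipocytes were present and higher in doxorubicin. Adipoq, adiponectin, was at 3.13, 3.36, 5.52 and 4.21 FPKM under bleomycin and 14.1, 9.58, 15.5 and 16.3 FPKM under doxorubicin, with vehicle and IL-1β means of 0.104 and 0.0429 FPKM (3.42-fold, adjusted p = 0.00146). Fabp4, a fatty-acid carrier, was 2.41-fold higher (58.3 ± 2.86 against 141 ± 17.5 FPKM), and Cfd, adipsin, 3.7-fold higher (2.25 ± 0.834 against 8.34 ± 0.927 FPKM). Of 8 adipocyte markers tested 6 were higher in doxorubicin. The summed level of the 11 listed was 83.1 to 91.3 FPKM under bleomycin, 162 to 210.2 FPKM under doxorubicin, 38.6 to 43.5 FPKM in vehicle and 371 to 409.9 FPKM under IL-1β, and it was mostly Fabp4. Pparg, the factor that drives fat cell formation, was at 5.8 ± 0.835 and 5.43 ± 1.02 FPKM and was not called.

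Among synovial fibroblast markers 4 of 7 were higher in doxorubicin: Prg4, which surface chondrocytes also express, Thy1, Cd34 and Cdh11. Thy1 was not called without bleomycin replicate 1 or 2 (adjusted p = 0.0536 for each). Their list summed to 180.3 to 232 FPKM under bleomycin and 241 to 324 FPKM under doxorubicin. Among 7 tendon markers Thbs4 (9.43 ± 0.987 against 21.8 ± 3.7 FPKM) and Tnmd (2.37 ± 0.208 against 4.95 ± 1.3 FPKM) were higher in doxorubicin (28.6%, against 3.91% of all genes tested). Egr1 was higher in bleomycin (14.3%, against 5.25%). Among macrophage markers Lyz2 was 1.79-fold higher in doxorubicin (6.1 ± 0.914 against 10.9 ± 1.03 FPKM). Cd68 and Cd14 were not called and Cd163 was listed at 0 in all 8 libraries. The 16 macrophage markers listed summed to 17.4 to 19 FPKM under bleomycin and 20.7 to 25.7 FPKM under doxorubicin. Of 7 skeletal and smooth muscle markers tested, Actg2 and Cnn1 were higher in doxorubicin and Tnni2, a troponin of fast skeletal muscle, in bleomycin (2.16 ± 0.276 against 1.06 ± 0.351 FPKM), where the count was 0 without bleomycin replicate 2 or doxorubicin replicate 2. The 12 listed summed to 20.7 to 24.9 FPKM under bleomycin and 34.5 to 46.4 FPKM under doxorubicin. Of 8 osteoclast markers 6 were below 1 FPKM in all 8 libraries, and 1 of the 2 tested was higher in doxorubicin. That count was 0 without bleomycin replicate 1, 2 or 3 or doxorubicin replicate 1 or 3. The osteoclast list summed to 104 to 114 FPKM under bleomycin and 123 to 158 FPKM under doxorubicin. By limma, osteoblast and keratinocyte markers had 0 called of 7 and of 4 (2 and 1 at an unadjusted p under 0.05), and their summed levels overlapped between the drugs. The part of other cell types in the inflammatory, contractile and lubricin differences was not tested.

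The largest difference in favour of bleomycin on the log2(FPKM + 1) scale was that of Msmp, which encodes microseminoprotein, a secreted protein described as a ligand of the chemokine receptor Ccr2. It was at 250.4, 315, 261 and 331 FPKM under bleomycin and 108, 119, 118 and 143 FPKM under doxorubicin, 2.37-fold apart (log2 difference 1.24, SE 0.11, adjusted p = 4.06e-04). The vehicle and IL-1β means were 8.42 and 0.658 FPKM, so it was high under both drugs and highest under bleomycin. Smpd3, the neutral sphingomyelinase that is needed for cartilage and bone mineralization, was at 11.9, 13.9, 17.5 and 11.6 FPKM under bleomycin and 5.51, 5.91, 8.48 and 4.65 FPKM under doxorubicin, 2.24-fold apart, with a vehicle mean of 18.8 FPKM. Egr1, an immediate early transcription factor, was at 13.6 ± 0.621 and 6.66 ± 0.203 FPKM, with 4 values close together in each group (log2 difference 0.93, SE 0.06, adjusted p = 1.47e-04).

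**Figure D4:**
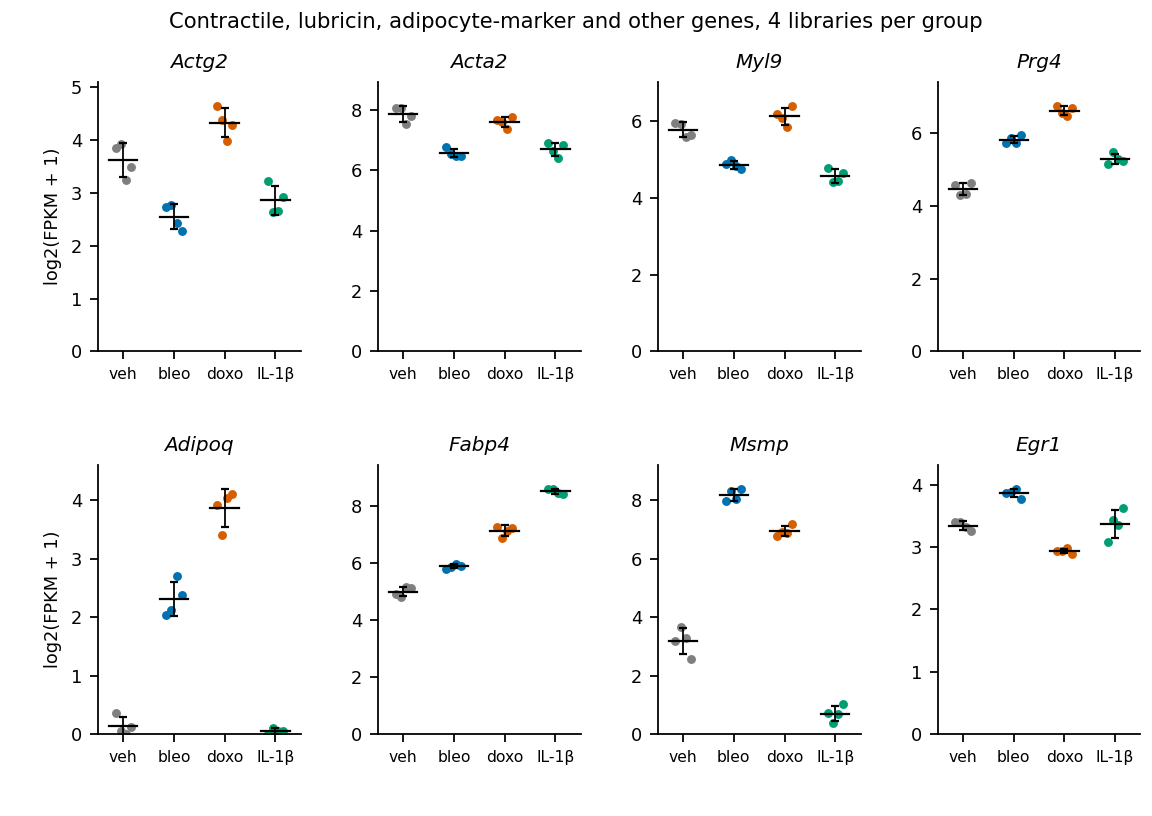
Levels of 8 genes in every library as log2(FPKM + 1), with the 4 groups on the horizontal axis. Points are libraries, and bars are the mean and SD of 4 on that scale. Actg2, Acta2, Myl9, Prg4, Adipoq and Fabp4 are higher in all 4 doxorubicin libraries than in any bleomycin library, and Msmp and Egr1 are higher in all 4 bleomycin libraries.

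Stress and metabolic lists differed by small steps. Of 41 ATF4 and unfolded-protein genes 11 were higher in bleomycin (26.8%) and 0 in doxorubicin, among them Hspa5, the main chaperone of the endoplasmic reticulum (389.6 ± 21.5 against 296 ± 25.5 FPKM, adjusted p = 0.0101), and Chac1, which degrades glutathione (28 ± 4.61 against 18.5 ± 1.62 FPKM). The count was 5 after median-of-ratios scaling, 2 without bleomycin replicate 3 and 4 to 6 without bleomycin replicate 1 or 2 or any 1 doxorubicin library. Of 35 glycolysis and hypoxia genes 7 were higher in bleomycin (20%), such as Eno1, enolase (649 ± 35.2 against 534 ± 18.1 FPKM), and Pfkp, phosphofructokinase (58 ± 2.25 against 46.9 ± 1.32 FPKM). That count was 4 with 2 in the other direction after median-of-ratios scaling, and 3 or 4 without bleomycin replicate 1, 2 or 3 or doxorubicin replicate 2. Gapdh and Pkm were not called.

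Drug-handling genes differed little. Blmh was at 23.7 ± 0.594 FPKM under bleomycin and 21.8 ± 1.17 FPKM under doxorubicin (adjusted p = 0.203), with a vehicle mean of 34.5 FPKM. Top2b, the second topoisomerase II, was at 13.6 ± 2.13 and 14.1 ± 0.396 FPKM, and Abcb1b, an efflux pump for doxorubicin, at 4.9 ± 0.402 and 6.05 ± 0.658 FPKM, neither called. Of 26 genes of the list 3 were higher in doxorubicin (11.5%, against 3.91% of all genes tested). They were Cbr2, a carbonyl reductase (33.1 ± 2.36 against 47.8 ± 1.24 FPKM, adjusted p = 0.00134), Gsta4, a glutathione transferase, and Akr1b8, an aldo-keto reductase. Gsta4 lost its call without bleomycin replicate 2 or doxorubicin replicate 4 (adjusted p = 0.0595 and 0.0532), and Akr1b8 without bleomycin replicate 1, 2 or 3 or doxorubicin replicate 2 (0.0575 to 0.0653). Top2a, described above, was the member higher in bleomycin. That count was 1 without bleomycin replicate 2. Of 43 NRF2 and glutathione genes 5 were higher in doxorubicin (11.6%, against 3.91% of all genes tested) and 2 in bleomycin (4.65%, against 5.25%), at a median of 0.00. The counts were 7 and 0 after median-of-ratios scaling, and 3 were higher in doxorubicin without bleomycin replicate 2. The 2 higher in bleomycin became 0 without bleomycin replicate 1, 2 or 3 or doxorubicin replicate 2, 3 or 4, and 1 without doxorubicin replicate 1. Gstm2 (13.6 ± 0.879 against 22.5 ± 3.24 FPKM) and Mgst1 (9.37 ± 0.767 against 14.2 ± 1.74 FPKM) had larger differences than Sod3 (68.4 ± 3.08 against 91.6 ± 8.5 FPKM).

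Growth-factor genes held single members that stood apart. Ltbp2, a protein of the fibrillin matrix, was 1.77-fold higher in doxorubicin (36.1 ± 1.82 against 63.7 ± 6.64 FPKM, adjusted p = 5.97e-04). Inhba, the activin A subunit, was 1.91-fold higher in doxorubicin (4.49 ± 1.03 against 8.6 ± 0.541 FPKM) and Grem1, a BMP antagonist, 1.59-fold higher. Gdf10, a TGF-beta family ligand, was 1.55-fold higher in bleomycin (15.7 ± 1.97 against 10.1 ± 0.591 FPKM). Over the list 5 of 36 were higher in bleomycin (13.9%, against 5.25% of all genes tested) and 3 in doxorubicin (8.33%, against 3.91%). These became 3 and 5 after median-of-ratios scaling, and 3 were higher in bleomycin without any 1 of bleomycin replicates 1 to 3 or doxorubicin replicates 3 and 4. Of 12 IGF genes the binding proteins Igfbp3 (79.5 ± 6.67 against 125 ± 14 FPKM) and Igfbp7 (108 ± 12.6 against 149 ± 9.84 FPKM) were higher in doxorubicin, while Igf2 was at 2548 ± 131 and 2427 ± 228 FPKM. Of 12 hyaluronan genes Tnfaip6, a hyaluronan-binding protein of inflammation, was 2.36-fold higher in doxorubicin (1.36 ± 0.179 against 3.21 ± 0.772 FPKM) and Cemip, which takes part in hyaluronan breakdown, 1.5-fold higher (adjusted p = 0.0191, or 0.0557 and 0.0501 without bleomycin replicate 1 and 2). The bleomycin cells alone had received hyaluronidase, and the part of that step was not tested.

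Iron and lysosome genes completed the lists. Trf, transferrin, was 2.18-fold higher in doxorubicin (5.94 ± 0.722 against 13 ± 0.647 FPKM, adjusted p = 3.19e-04), as were Cp, ceruloplasmin (1.75-fold), and Slc39a14, a metal importer (1.54-fold). Steap3, an iron reductase and p53 target, was 1.54-fold higher in bleomycin (71 ± 2.1 against 46.1 ± 2.65 FPKM, adjusted p = 4.06e-04). Of 51 lysosome genes 2 were higher in each drug, a share at the background, and Ctsd, cathepsin D, was at 1151 ± 57.6 and 1217 ± 58.9 FPKM. Of 34 genes of cholesterol and fatty acid synthesis 2 were higher in doxorubicin, Scd1 and Fads2. That share of 5.88% was near the 3.91% of all genes tested, and the list median was 0.07.

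**Figure D5:**
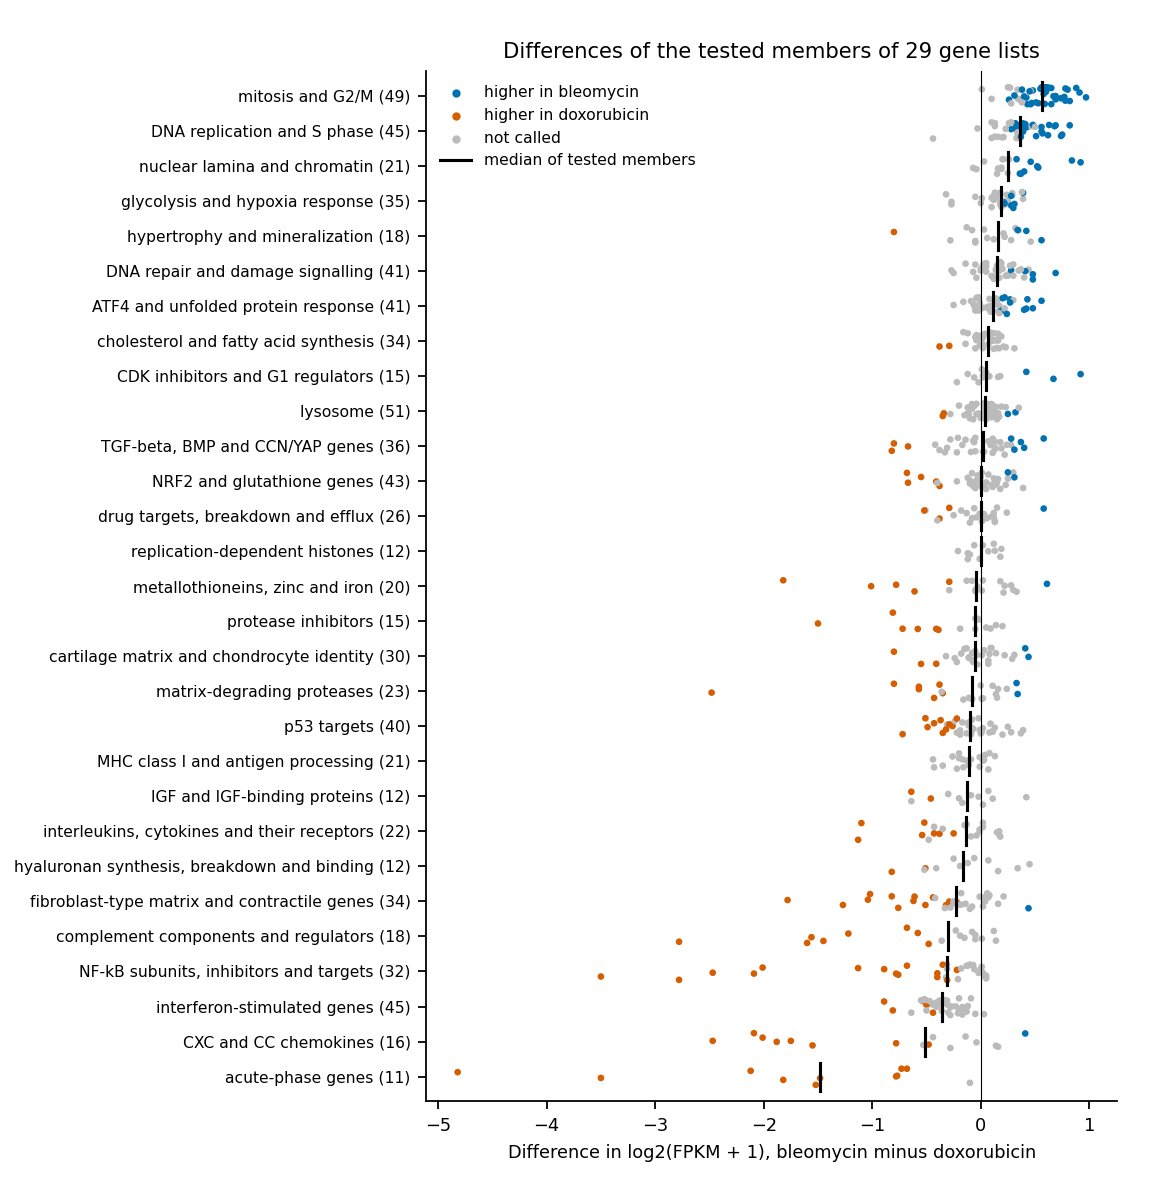
Difference in log2(FPKM + 1), bleomycin minus doxorubicin, of every tested member of 29 gene lists, ordered by the median (black bar), with the number tested in brackets. Each point is a gene, coloured where it was called. The acute-phase list reaches a median of -1.48 at the bottom and the mitosis list 0.56 at the top, and most lists in between straddle 0.

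Beyond the lists, the called genes differed in their extent on the genome. Genes spanning more than 100 kb in the GENCODE M21 annotation made up 5.96% of those higher in bleomycin (39 of 654), 16.6% of those higher in doxorubicin (81 of 487) and 12.2% of all tested. The median spans were 17.7 kb, 24.1 kb and 21.7 kb. The median levels of the 3 sets were close, at 12.1, 10.3 and 9.67 FPKM. Among the genes at least 2-fold higher in doxorubicin that no list named were Rspo2, a Wnt agonist (9 ± 1.26 against 24.5 ± 3.65 FPKM), Fgf7, an epithelial growth factor (18.7 ± 2.21 against 44.9 ± 3.76 FPKM), Vcan, the proteoglycan versican (11.5 ± 1.99 against 25.7 ± 3.57 FPKM), and Gsdmd, gasdermin D, the pore-forming protein of inflammatory cell death (4.87 ± 0.51 against 11 ± 1.71 FPKM). These 4 were picked after their values were seen, as were Abcb1b, Adamts9, Ccl5, Ccl7, Col6a3, Cx3cl1, Dmkn, F3, Gm27021, Hp, Kcnj15, Mmp23, Sfrp2 and Top2b above.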

How the data were processed

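RNA was extracted with TRI reagent and made into TruSeq Stranded mRNA libraries, per the labels' protocols. Trimmomatic, STAR and GRCm38 are named in the submitters' processing notes, while for the FPKM values themselves neither tool nor annotation is given in the sources used here. For every gene and library the authors deposited 1 FPKM value. Counts could not be recovered: 63.1% to 67.4% of low values were whole within 0.1 of a fragment at the best depth per library, so depths are estimates and no count test was run.

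Genes reaching 1 FPKM in 4 or more of the 8 drug libraries entered a fit of log2(FPKM + 1) by limma 3.58.1 (R 4.3.3) and a mean-variance trend, without a replicate term, with Benjamini-Hochberg adjustment over 12459 genes and a threshold of 0.05. Fold changes of means are on the FPKM scale and log2 differences on the log2(FPKM + 1) scale, which understates changes of low genes. The script was tested on simulated data. Tables and plots were made with Python 3.11.15, pandas 2.3.3 and matplotlib 3.10.9. The labels do not say whether replicate numbers pair libraries. Deviations of same-numbered libraries correlated at 0.039, 0.043, 0.042 and 0.046, and those of differently numbered ones at -0.1 to 0.082.

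Named genes were a set of senescence, inflammation and cartilage genes, the 15 with the largest called, non-overlapping difference in each direction among genes with a mean of at least 5 FPKM in the higher group (predicted genes left out), and in each list up to 5 called members with the largest difference and up to 3 abundant others. Tested genes named outside this rule are marked in the text as picked after their values were seen. Pecam1, Cdh5, Ptprc, Adgre1, Csf1r, Itgam and Cd163 did not pass the filter. They are named as examples of low markers, also outside the rule. The members and the 40 gene lists were chosen with earlier results of these data known. Of the Ensembl IDs, 55190 were in GENCODE M21. Promoters are RefSeq windows, matched by symbol. The 16 alternatives, among them other pseudocounts, filters, scalings, a replicate block and leaving out each library, are described at the end.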

Additional observations from a re-analysis of the deposited data

Results flagged for a closer look

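Single libraries stood far from the other three of their group in 25 of the 320 groups of 4 looked at, by Dixon's test at the 95% level, and chance alone flags about 1 in 20 groups. Doxorubicin replicate 4 was the high library for Lcn2 (580.2 FPKM), Mmp13 (512 FPKM), Mmp14 (171 FPKM), Cxcl1 (61.7 FPKM), C3 (58.5 FPKM), Vcan (31 FPKM) and Saa1 (4.64 FPKM). Bleomycin replicate 4 was the high library for Grem1 (44.2 FPKM), Mmp3 (36.5 FPKM), Adamts5 (16.3 FPKM) and C3 (6.57 FPKM), and the low one for Cd14 (4.83 FPKM). The other outlying values were in bleomycin replicate 3 for Gdf10 (18.6 FPKM), Fgf7 (15.4 FPKM) and Adgre1 (0.0192 FPKM, where the others were listed at 0), in bleomycin replicate 2 for Ccl5 (5.61 FPKM) and Dmkn (0.783 FPKM), in doxorubicin replicate 2 for Cd14 (4.63 FPKM), and in doxorubicin replicate 3 for Sox9 (51.2 FPKM), Masp1 (51 FPKM) and Adgre1 (0.018 FPKM, the others at 0). Cox7a2l was high in bleomycin replicate 3 (90.9 FPKM), Scd2 in bleomycin replicate 3 (101 FPKM) and doxorubicin replicate 3 (104 FPKM), and Igfbp4 in doxorubicin replicate 3 (83.9 FPKM).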

How the results depend on the processing

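The 654 genes higher in bleomycin became 365 with no filter on low values, 389 after median-of-ratios scaling and 353 with the replicate block, and 333 to 554 with 1 library left out. Genes higher in doxorubicin numbered 333 to 479 with 1 library left out and 386 with the replicate block. The labels do not say what equal replicate numbers share, and no correlation of same-numbered libraries was over 0.1. Some genes still moved together: Col2a1, Comp and Scd2 were highest at replicate 3 under both drugs. Whether same-numbered libraries are paired is not known. Genes at least 2-fold higher numbered 21 in bleomycin and 84 in doxorubicin with a pseudocount of 0.1 FPKM, and 2 to 5 and 41 to 51 with 1 library left out. Genes alike numbered 25724 with no filter and 9370 with a pseudocount of 0.1 FPKM. The cause of these shifts was not tested. Uncalled differences near 0 changed sign. With 1 library left out they ran from -0.10 to 0.03 for Col2a1, -0.12 to 0.03 for Acan, -0.07 to 0.02 for Rrm2, -0.02 to 0.16 for Pparg, -0.10 to 0.02 for Timp1, -0.09 to 0.03 for Cd14, -0.07 to 0.04 for Vim, -0.02 to 0.03 for Bub3, -0.01 to 0.08 for Mmp14, -0.06 to 0.04 for Masp1 and -0.29 to 0.63 for Scd2. Quantile normalization gave 0.10 for Col2a1, 0.01 for Vim, -0.03 for Bub3 and -0.00 for Mmp14 and Masp1, and median-of-ratios scaling gave -0.04 for Bub3 and Masp1 and -0.03 for Mmp14. Depth was only estimated, so no limit of detection is given for genes listed at 0.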

Other observations

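A few genes took 2 separate levels across libraries of the same group. Cox7a2l, of the mitochondrial respiratory chain, is among the 48 genes at least 2-fold higher in doxorubicin. It was at 34.5, 38.7, 90.9 and 36.6 FPKM under bleomycin, 97.1 to 110.2 FPKM under doxorubicin, 43.1, 42.8, 36.7 and 101 FPKM in vehicle and 93.3 to 113 FPKM under IL-1β. Scd2, a fatty acid desaturase, was at 28.3, 30.3, 101 and 31 FPKM under bleomycin and 24.2, 25.4, 104 and 28 FPKM under doxorubicin. Igfbp4, a binding protein of insulin-like growth factors, was at 84.4, 41.4, 89.9 and 80.2 FPKM against 43.2, 43.3, 83.9 and 48.7 FPKM. These 3 genes were chosen after their values were seen.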
